A study of Mus musculus with 8 samples.

Results

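Toll-like receptors are membrane proteins that recognise molecules of microbes and of damaged cells, and CD14 is the surface protein that hands bacterial lipopolysaccharide to one of them. The genes described here are the 9 mouse receptor genes Tlr1, Tlr2, Tlr3, Tlr4, Tlr6, Tlr7, Tlr8, Tlr9 and Tlr13 together with Cd14. They were taken by gene symbol, though with earlier results of these data known. They make up 10 of the 54134 genes in the deposited expression table. RNA had been sequenced from mouse bone marrow adipocyte cultures (BMAd, genotype WT), obtained by differentiating bone marrow stem cells with an adipogenesis kit for 14 days. The 8 libraries form 3 groups. Control cultures (n = 2) are labelled with differentiation and no drug, GC cultures (n = 3) received 1e-06 M of the synthetic glucocorticoid dexamethasone for 24 hours, and GC+GW9662 cultures (n = 3) received the same dexamethasone together with GW9662, which blocks PPARγ, the nuclear receptor that drives fat cell differentiation. The dose of GW9662 is not given in the sources used here, and no group with the inhibitor alone is among these samples. The labels leave unsaid whether replicate libraries are separate cultures or animals, and the p-values cover the spread among these libraries, which may be technical.

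The receptors fall into classes by place and partner. TLR4 works at the cell surface with the lipopolysaccharide-binding protein MD-2 (gene Ly96) and with CD14. TLR2 pairs with TLR1 or TLR6 and recognises bacterial lipoproteins. TLR3, TLR7, TLR8, TLR9 and TLR13 sit in endosomes and recognise nucleic acids, and their transport there depends on the chaperone UNC93B1. Most receptors signal through the adaptor MyD88 towards NF-kB and interferon regulatory factors, while TLR3 uses the adaptor TRIF (gene Ticam1) and TLR4 uses both. Macrophages are the cells best known for a broad set of these receptors, and adipocytes and marrow stromal cells are also known to carry some of them.

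Values are TPM, transcript levels scaled for gene length and library total, so levels of different genes can be set side by side. Taking out a gene length trend changed some results below, so comparisons between genes of unlike length are approximate. Tests are on log2(TPM + 1), with the standard error and the adjusted p-value of limma over all 14985 genes that reached 1 TPM in at least 2 libraries. That scale understates the change of genes near 0. A pair of glucocorticoid-induced genes goes against the labels. Fkbp5 stood at 446 ± 24.1 TPM (SD) in Control and 58.5 ± 24.2 in GC, and Tsc22d3 at 557 ± 21 and 59.6 ± 7.70. In GC+GW9662, also labelled with dexamethasone, Fkbp5 stood at 95.4 ± 14.3 TPM and Tsc22d3 at 429 ± 27.2, so the former was near GC and the latter nearer to Control. Each direction below therefore rests on the groups as the libraries are labelled. The adipocyte label was also checked. The summed level of 8 adipocyte markers was 1192 to 1193 TPM in Control, 37.3 to 52.6 in GC and 1083 to 1225 in GC+GW9662, with the leptin gene Lep at 0 in every library. These sums hide a split. In GC+GW9662 against Control, 3 of the 7 tested markers were higher and 2 lower, with changes from -2.73 to 1.23. Of all genes, 14.1% were higher and 48.6% lower in that comparison. Over all genes tested the median change was -0.38 in GC against Control, -0.11 in GC+GW9662 against GC and -0.49 in GC+GW9662 against Control, and scaling by the median ratio moved these medians to 0.06, 0 and 0.03.

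Sequence upstream of 3 receptor genes is shown for the member that fell furthest in GC (Tlr8), the receptor with the highest level in Control (Tlr13) and the receptor that differed most between GC+GW9662 and GC among those near Control with the inhibitor (Tlr2). These stretches are from RefSeq (GRCm38.p6), read 5′ to 3′ on the gene's strand, and end where the first annotated exon begins. Tlr8 is read from chrX:167264330-167264579 on the minus strand, Tlr13 from chrX:106143025-106143203 on the plus strand and Tlr2 from chr3:83841768-83841858 on the minus strand.
Tlr8: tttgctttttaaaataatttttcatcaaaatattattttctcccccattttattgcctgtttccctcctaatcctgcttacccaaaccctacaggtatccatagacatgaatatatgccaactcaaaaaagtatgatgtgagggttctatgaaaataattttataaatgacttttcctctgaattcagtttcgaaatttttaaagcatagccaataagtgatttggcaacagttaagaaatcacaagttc
Tlr13: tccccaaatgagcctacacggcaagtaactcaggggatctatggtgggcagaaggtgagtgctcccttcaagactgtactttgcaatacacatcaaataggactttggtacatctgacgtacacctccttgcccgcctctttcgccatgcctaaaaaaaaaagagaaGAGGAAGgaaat
Tlr2: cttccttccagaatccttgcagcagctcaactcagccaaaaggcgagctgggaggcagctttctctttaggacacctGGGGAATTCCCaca
Capitals mark matches, on either strand, to any of 5 motifs: TGANTCA (AP-1), GAGGAAG (PU.1, a myeloid transcription factor), AGAACA (a short element of the glucocorticoid receptor), the interferon-stimulated response element and the NF-kB consensus. Tlr13 holds 1 PU.1 match, and 7.24% of 32851 upstream windows of that length hold one. Tlr2 holds 2 overlapping matches to the NF-kB consensus, and 1.30% of windows of that length hold at least 1. Each window compared was the first part of a 250-base upstream stretch, so the shorter ones need not end where an exon begins. The consensus searched for NF-kB was widened to its textbook form after the sequences had been seen. Tlr8 holds none of the 5, and the shares of windows of its length that hold each range from 2.98% to 16.1%. A match is a description of the letters only. In the coordinates of the deposited table (GRCm38), the genes themselves span chr3:83836272-83841767 (Tlr2, minus strand), chr8:45395665-45411080 (Tlr3, minus strand), chr4:66827584-66930284 (Tlr4, plus strand), chr9:106222598-106226883 (Tlr9, plus strand) and chrX:106143204-106160493 (Tlr13, plus strand).

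All 10 genes passed the filter on low values, but 5 of them (Tlr1, Tlr3, Tlr6, Tlr8 and Tlr9) reached 1 TPM in no GC library and passed through the other groups. Counts of calls over the 10 genes are therefore descriptions. Between GC and Control 9 of the 10 were called lower and none higher, where 55.3% of all genes tested were called, 39.1% lower and 16.2% higher. By median-ratio scaling these genome-wide counts moved from 2428 higher and 5863 lower to 4072 and 3946. The libraries of the 2 groups did not overlap for the same 9 genes, a pattern in which the GC libraries lay below for 49.7% of all genes and above for 22.2%. The exception was Cd14.

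**Figure D1:**
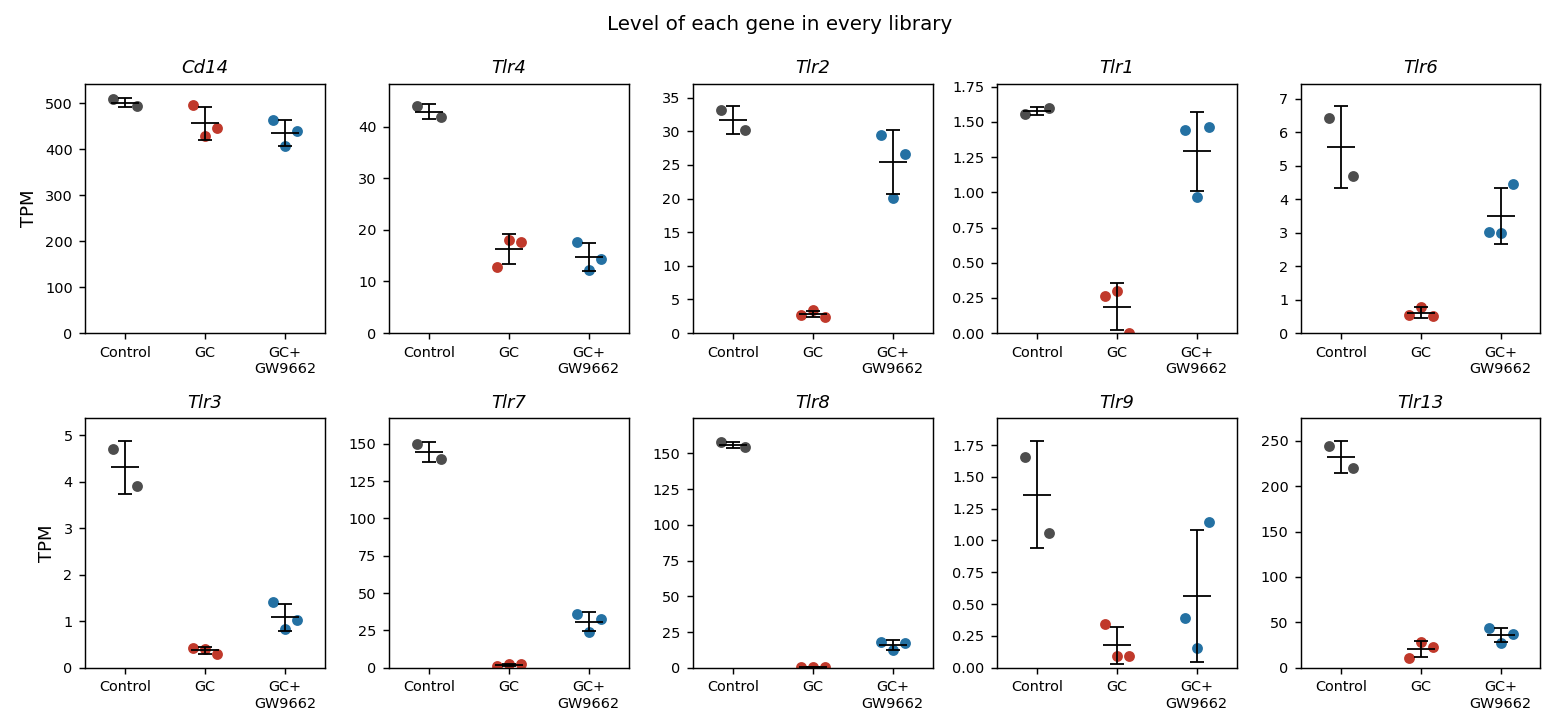
TPM (linear axes from 0) of the 10 genes in each of the 8 libraries, by group. Points are libraries and bars are the mean ± SD of 2 Control, 3 GC and 3 GC+GW9662 libraries. Cd14 stays between 406 and 508 TPM throughout, while Tlr8 goes from 154 or more in Control to 0.674 or less in GC.

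Cd14 was the most abundant of the 10 genes in every library. In the order of the replicates, Control gave 508 and 494 TPM. The GC libraries gave 496, 428 and 445 TPM, and those with the inhibitor 463, 406 and 439. The GC libraries overlapped those of Control, and the GC+GW9662 libraries lay below them. Cd14 passed in none of the 3 comparisons. Its change was -0.14 in GC against Control (SE 0.10, 95% interval -0.38 to 0.11, limma adjusted p = 0.30), -0.07 in the inhibitor group against GC (interval -0.28 to 0.15, adjusted p = 0.56) and -0.20 in GC+GW9662 against Control (interval -0.44 to 0.04, adjusted p = 0.12). On the deposited scale these intervals leave out a change of 1 log2 unit in either direction. The sign of the first depends on scaling, since median-ratio scaling gave 0.41 (adjusted p = 0.09), rescaling without mitochondrial and the 20 most abundant genes 0.07 and taking out a gene length trend 0.03, while library weights gave -0.17 with adjusted p = 0.0011. The last comparison also depends on scaling. Median-ratio scaling called Cd14 higher there (0.49, adjusted p = 0.045), whereas quantile normalization (-0.40, 0.0097), library weights (-0.18, 0.012) and taking out the length trend (-0.30, 0.036) called it lower. Between the treated groups, quantile normalization (-0.38, 0.0053) and taking out the length trend (-0.33, 0.011) called it lower, and median-ratio scaling turned its sign (0.08). The ferritin gene Fth1, named after its values were seen, took 13.3% to 13.5% of all TPM in GC and 3.69% to 3.91% elsewhere. Rescaling without it and the other most abundant genes moved the median of all genes in GC against Control from -0.38 to -0.21.

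Tlr4, the receptor that CD14 serves, fell in GC and stayed low with the inhibitor. It stood at 44.0 and 41.9 TPM in Control, 12.9, 18.1 and 17.7 in GC, then 17.7, 12.3 and 14.4 with GW9662 added. Both treated groups lay below Control and overlapped each other. The change was -1.36 ± 0.20 (SE) in GC against Control (limma adjusted p = 7.2e-04) and -1.49 ± 0.20 in GC+GW9662 against Control (adjusted p = 0.0017). Between the treated groups it was -0.13 (interval -0.55 to 0.29, adjusted p = 0.57), and its sign there turned under median-ratio scaling (0.01), quantile normalization (0.13) and without the length trend (0.26). Library weights called it lower there (-0.22, adjusted p = 0.033). Within a library, a factor shared by all genes leaves the ratio of Cd14 to Tlr4 unchanged. Quantile normalization and taking out the length trend can change it. Between the treated groups, taking out the trend put Cd14 at -0.33 and Tlr4 at 0.26, against -0.07 and -0.13 in the main fit. On the deposited scale the ratio was 11.6 and 11.8 in Control and 38.5, 23.6 and 25.2 in GC. With GW9662 added it was 26.2, 33.1 and 30.4, so each treated library lay above both controls.

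Ly96, which encodes the MD-2 partner of TLR4, went the other way from Tlr4. It rose from 50.2 ± 4.46 TPM (SD) in Control to 144 ± 48.4 in GC (1.45 ± 0.25, limma adjusted p = 0.0015) and stood at 92.6 ± 12.9 in GC+GW9662. The ratio of Ly96 to Tlr4 was 1.07 and 1.27 in Control, 5.84 to 15.4 in GC and 4.70 to 8.76 in GC+GW9662. The difference between the treated groups was -0.59 ± 0.22 with adjusted p = 0.05, under the threshold only before rounding, and 16 of 22 alternatives ended the call, with adjusted p from 2.9e-04 to 0.24. Without GC replicate 1 the difference was -0.33 (adjusted p = 0.058), and leaving out GC replicate 3, any GC+GW9662 library or any Control library ended the call too.

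Tlr2 was low in GC and near its Control level with GW9662. It measured 33.1 and 30.1 TPM in Control, 2.66, 3.37 and 2.41 in GC, then 29.4, 20.1 and 26.7 with GW9662 added. The GC libraries lay far below all others, and the highest GC+GW9662 library was just under the lower control. The change was -3.10 ± 0.21 in GC against Control (limma adjusted p = 9.8e-06) and 2.78 ± 0.18 in GC+GW9662 against GC (adjusted p = 9.5e-06). Against Control the GC+GW9662 libraries differed by -0.32 (interval -0.80 to 0.15, adjusted p = 0.20).

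The partners of TLR2 were much lower in level and followed the same order of groups. Tlr1 stood at 1.56 and 1.60 TPM in Control, 0.265, 0.30 and 0 in GC, then 1.44, 0.968 and 1.46 with GW9662 added. An estimated 50 and 55 reads lie behind the Control values and 8, 11 and 0 behind those of GC, so Tlr1 was at the edge of detection in GC. Tlr6 stood at 6.42 and 4.69 TPM in Control, 0.545, 0.786 and 0.504 in GC, then 3.03, 2.99 and 4.45 with GW9662 added. For both genes the 3 GC libraries were the lowest of the 8. In GC against Control Tlr1 fell by 1.13 (SE 0.20, limma adjusted p = 0.0017) and Tlr6 fell by 2.01 (SE 0.23, adjusted p = 1.6e-04). With the inhibitor they were higher than in GC by 0.95 (SE 0.18, adjusted p = 0.0023) and 1.47 (SE 0.20, adjusted p = 5.0e-04).

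Neither partner passed in GC+GW9662 against Control, with Tlr1 at -0.18 (interval -0.64 to 0.28) and Tlr6 at -0.55 (interval -1.08 to -0.02, adjusted p = 0.066). Tlr6 passed there without GC+GW9662 replicate 3 (-0.70, adjusted p = 0.032), with a pseudocount of 5 (0.037), with a constant prior (0.046) and with library weights (0.037). The direction of Tlr1, Tlr2 and Tlr6 in this comparison turned to positive under median-ratio and quantile scaling and without the length trend, with none past the threshold. Tlr1 and Tlr6 are neighbours on chromosome 5, at chr5:64924679-64933563 and chr5:64952031-64960097, both on the minus strand with 18.5 kilobases between them. The ratio of Tlr2 to Tlr6 was 5.16 and 6.43 in Control, 4.29 to 4.88 in GC and 5.99 to 9.72 in GC+GW9662.

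Of the endosomal receptors, Tlr13, Tlr8 and Tlr7 were abundant in Control. Tlr8, a receptor known for sensing breakdown products of RNA, stood at 158 and 154 TPM in Control, 0.233, 0.674 and 0.470 in GC, then 18.3, 12.1 and 17.6 with GW9662 added. The 3 groups did not overlap. The Control values rest on an estimated 5727 and 6018 reads, those of GC on 8, 28 and 20 and those of GC+GW9662 on 455 to 668. The mean in GC was 0.294% of that in Control, and in GC+GW9662 it was 10.3%. The change was -6.76 ± 0.22 in GC against Control (limma adjusted p = 4.6e-07), 3.53 ± 0.20 in GC+GW9662 against GC and -3.23 ± 0.22 in GC+GW9662 against Control (adjusted p = 3.9e-04).

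Tlr7, which senses single-stranded RNA, had the same order of groups at a higher floor. It stood at 150 and 140 TPM in Control, 0.925, 2.48 and 2.30 in GC, then 36.2, 24.2 and 32.4 with GW9662 added. The groups again did not overlap, and the mean levels in GC and GC+GW9662 were 1.31% and 21.4% of that in Control. The change was -5.70 ± 0.28 in GC against Control (limma adjusted p = 2.4e-06), 3.49 ± 0.25 in GC+GW9662 against GC and -2.21 ± 0.28 in GC+GW9662 against Control (adjusted p = 0.0016). Tlr8 and Tlr7 lie side by side on the X chromosome at chrX:167242696-167264329 and chrX:167304929-167330558, with 40.6 kilobases between them, on the minus strand. Their ratio differed between the groups without overlap. Tlr7 over Tlr8 was 0.949 and 0.907 in Control, 3.96, 3.68 and 4.89 in GC, then 1.98, 1.99 and 1.84 with GW9662 added.

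Tlr13, a receptor of bacterial ribosomal RNA that mice have and humans lack, was the highest receptor in Control at 244 and 220 TPM. It stood at 11, 27.9 and 22.5 TPM in GC, then 43.5, 27.6 and 37.0 with GW9662 added. Both treated groups lay below Control, and they overlapped by a narrow margin, since GC replicate 2 exceeded GC+GW9662 replicate 2. The change was -3.53 ± 0.35 in GC against Control (limma adjusted p = 8.1e-05) and -2.68 ± 0.35 in GC+GW9662 against Control (adjusted p = 0.0016). In GC+GW9662 against GC it was 0.85 ± 0.32 with adjusted p = 0.045, a call that 11 of 22 alternatives ended (adjusted p up to 0.14). Without GC replicate 1 the change was 0.48, and it still passed. The loss from Control to GC therefore differed between the abundant endosomal receptors: Tlr13 over Tlr8 was 1.43 to 1.55 in Control, 41.4 to 48.0 in GC and 2.1 to 2.38 in GC+GW9662.

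Tlr3, the sensor of double-stranded RNA, and Tlr9, the sensor of unmethylated DNA, were low in all groups. Tlr3 stood at 4.71 and 3.91 TPM in Control, 0.432, 0.412 and 0.293 in GC, then 1.41, 0.831 and 1.03 with GW9662 added. The 3 groups were apart, with the GC+GW9662 libraries nearer to GC than to Control. Its change was -1.94 ± 0.19 in GC against Control (limma adjusted p = 7.6e-05), 0.59 ± 0.17 in GC+GW9662 against GC (adjusted p = 0.018) and -1.35 ± 0.19 in GC+GW9662 against Control (adjusted p = 0.0019). The second call was lost without GC replicate 3 (0.54, adjusted p = 0.068) or GC+GW9662 replicate 1 (0.48, adjusted p = 0.055), and the third with the length trend removed (-0.38, adjusted p = 0.20). An antisense gene, Gm45542, covers 7.32% of the exon bases of Tlr3 and was listed at 0 in all libraries.

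Tlr9 varied widely around its low level in GC+GW9662. It stood at 1.66 and 1.06 TPM in Control, 0.345, 0.095 and 0.093 in GC, then 0.390, 0.158 and 1.14 with GW9662 added, from an estimated 61 and 42, then 12, 4 and 4, then 14, 6 and 44 reads. One GC+GW9662 library was at the level of Control and the other 2 near those of GC. It fell by 1.0 in GC against Control (SE 0.28, limma adjusted p = 0.016), a call lost without Control replicate 1 (-0.81, adjusted p = 0.11) and under median-ratio scaling (-0.72, 0.077), quantile normalization (-0.72, 0.10) and without the length trend (-0.54, 0.16). Neither other comparison passed (0.37, adjusted p = 0.23, against GC and -0.63, adjusted p = 0.08, against Control). The first moved between 0.11 (without GC+GW9662 replicate 3) and 0.56 (without GC+GW9662 replicate 2) with 1 library left out, and library weights called it higher (0.62, adjusted p = 0.0083). Without GC+GW9662 replicate 3 the difference from Control became -0.88 with adjusted p = 0.013.

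**Figure D2:**
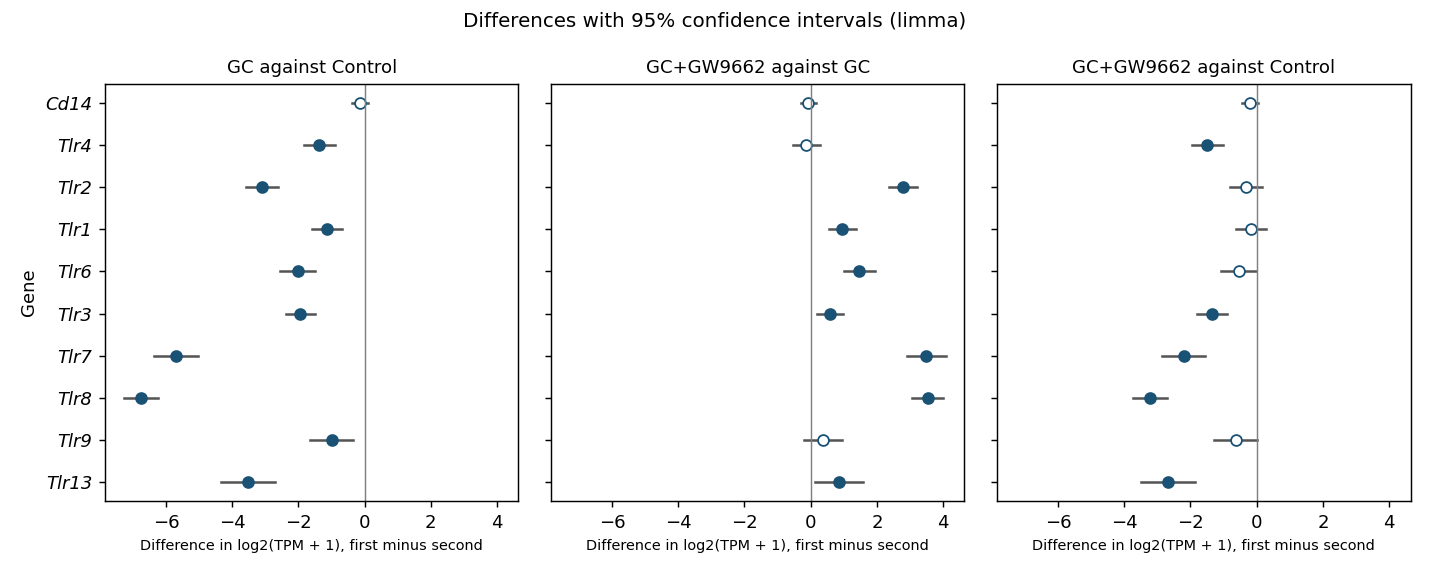
Difference in log2(TPM + 1) with 95% confidence intervals from limma for each gene in the 3 comparisons. Filled points passed at an adjusted p of 0.05 and open points did not. In GC against Control every point but that of Cd14 is filled and negative (Tlr9 not under median-ratio or quantile scaling); in GC+GW9662 against Control the open points of Tlr1, Tlr2 and Tlr6 change sign under both of these scalings and that of Cd14 under median-ratio scaling.

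With the inhibitor, 7 of the 10 genes were called higher than in GC and none lower, where 61.7% of all genes tested were called, 28.3% higher and 33.5% lower. The libraries lay above GC without overlap for 6 of the 10, against 30.3% of all genes, and below for none, against 33.8%. The 3 genes that did not pass were Cd14, Tlr4 and Tlr9. Compared with Control, 5 of the 10 were called lower in GC+GW9662 (Tlr3, Tlr4, Tlr7, Tlr8 and Tlr13) and none higher, where 62.7% of all genes were called, 14.1% higher and 48.6% lower. The genes called lower numbered 4687 by median-ratio scaling in place of 7284. The libraries lay below Control without overlap for 9 of the 10 genes, against 57.3% of all genes, and above for none, against 21.6%. The comparisons share libraries, so these counts are not independent of each other.

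**Figure D3:**
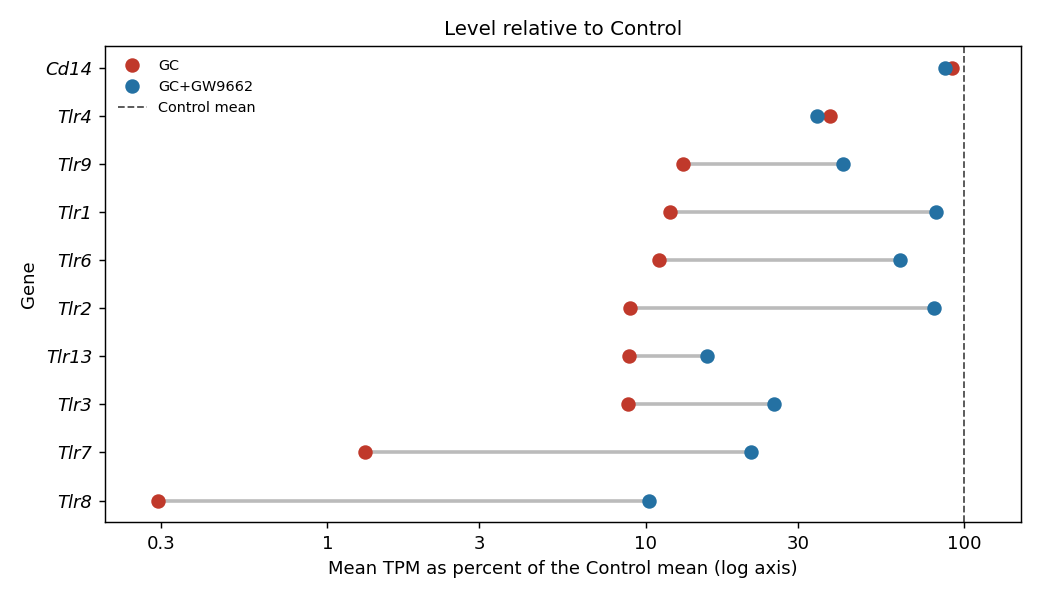
Mean TPM in GC and GC+GW9662 as a percentage of the Control mean (dashed line, log axis), with genes ordered by this percentage in GC. Tlr8 and Tlr7 lie lowest in GC at 0.294% and 1.31%, and with GW9662 Tlr1 and Tlr2 lie at 81.7% and 80.3% of Control while Tlr4 lies at 34.4%.

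As a share of the Control mean, the genes spread widely in GC+GW9662. Tlr1 (81.7%), Tlr2 (80.3%) and Tlr6 (62.8%) were nearest to Control among the receptors. Tlr9 (41.5%), Tlr4 (34.4%), Tlr3 (25.2%), Tlr7 (21.4%), Tlr13 (15.5%) and Tlr8 (10.3%) were further away. In GC the same measure was 37.8% for Tlr4 and between 8.79% and 13.1% for Tlr1, Tlr2, Tlr3, Tlr6, Tlr9 and Tlr13.

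The order of levels within a group changed accordingly. In Control it ran Cd14, Tlr13, Tlr8, Tlr7, Tlr4, Tlr2, Tlr6, Tlr3, Tlr1 and Tlr9. The libraries of neighbours in this order overlapped only for Tlr6 with Tlr3 and Tlr1 with Tlr9. In GC Tlr13 and Tlr4 followed Cd14 and overlapped each other, and from Tlr6 downwards (Tlr6, Tlr8, Tlr3, Tlr1 and Tlr9) each gene overlapped the next. In GC+GW9662 Tlr13, Tlr7 and Tlr2 followed Cd14, each overlapping the next in range, though Tlr13 was above Tlr7 and Tlr7 above Tlr2 within all 3 libraries. Cd14 made up 44.1% to 45.2% of the summed TPM of the 10 genes in Control, 88.8% to 94.4% in GC and 75.4% to 80.1% in GC+GW9662.

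Markers of macrophages also differed between the groups. Of 20 macrophage markers, 19 were lower and 1 higher (Cd68) in GC against Control, where 39.1% of all genes were lower and 16.2% higher. The summed level of the markers was 34120 to 34680 TPM in Control, 9925 to 10320 in GC and 29850 to 33640 in GC+GW9662. Without Lyz2, the most abundant of them in Control, the sums were 23670 to 23760, 3785 to 4226 and 25210 to 26110 TPM, and none of the 20 was at 0 in every library. The sum hides a split with the inhibitor: against Control 13 of the 20 were lower, 2 higher (Tyrobp and Ms4a7) and 5 did not pass, with a median of -1.26. Of all genes, 48.6% were lower and 14.1% higher in that comparison. C1qa, C1qb, C1qc and Tyrobp, among the most abundant of the list, stood at 126%, 90.5%, 106% and 199% of their Control means and Lyz2 at 60%. Csf1r stood at 19.6%, Mpeg1 at 17.5%, Cybb at 16.5%, Siglec1 at 14.2%, Mertk at 10.2% and Mrc1 at 9.78%, a range that spans the shares of Tlr8 (10.3%) and Tlr13 (15.5%). These markers were chosen here after their values were seen. In bulk RNA, fewer cells of a type and less RNA per cell cannot be told apart, and the part of macrophage number in the results above was not tested. Per 1000 TPM of macrophage markers, Tlr8 measured 4.52 and 4.54 in Control, 0.0235 to 0.0662 in GC and 0.407 to 0.543 in GC+GW9662. The groups did not overlap, but with the inhibitor the value is set by the few abundant markers that stayed near or above Control, and Mrc1 and Mertk stood at about the same share of Control as Tlr8.

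The same ratio for the surface genes has the same limit. Tlr4 measured 1.23 and 1.27 per 1000 TPM in Control, 1.30 to 1.78 in GC and 0.411 to 0.526 in GC+GW9662. Its own difference between GC+GW9662 and Control (-1.49) was close to the median of the 20 markers (-1.26). In the other comparisons it was not. In GC against Control Tlr4 changed by -1.36 and the markers by a median of -3.48. In GC+GW9662 against GC these values were -0.13 and 2.30. Tlr2 measured 0.884 and 0.955 in Control, 0.233 to 0.331 in GC and 0.673 to 0.875 in GC+GW9662. Cd14 measured 14.5 and 14.7 in Control, 42.1 to 50.02 in GC and 13.4 to 13.8 in GC+GW9662. These sums include markers that themselves moved in both directions, among them Cd68, which went from 979 ± 32.1 TPM (SD) in Control to 2651 ± 403 in GC.

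Several defining markers of other cells that carry these receptors were at or near 0. Of 6 plasmacytoid dendritic cell genes, Siglech, Ccr9 and Klk1 stayed below 1 TPM, with Klk1 at 0. The list summed to 224 to 231 TPM in Control, 106 to 146 TPM in GC and 309 to 337 TPM with GW9662 added. Most of that sum was Bst2 (186, 120 and 315 TPM on average). Bst2, Tcf4 and Cox6a2, the 3 tested, were all lower in GC against Control, where 39.1% of all genes were lower. All 3 were higher in GC+GW9662 against GC, where 28.3% of all genes were higher. Conventional dendritic cell genes summed to at most 5.38 TPM in any library (Clec9a at 0), mast cell and basophil genes to at most 7.46 (Fcer1a, Ms4a2 and Prss34 at 0), endothelial genes to at most 8.85 and T and NK cell genes to at most 22.8. Of 10 neutrophil genes 6 stayed below 1 TPM in every library (among them Ly6g, Elane and Mpo), but the list summed to 22.5 to 27.9 TPM in Control, 249 to 550 in GC and 73.2 to 85.3 in GC+GW9662. Nearly all of that sum was S100a8 (22.8, 381 and 77.3 TPM on average), and Csf3r went the other way in GC (1.35, 0.0461 and 0.531 TPM). Both were singled out after their values were seen. Marrow stroma and fibroblast markers summed to 1311 to 1374 TPM in Control, 52.9 to 102 in GC and 334 to 361 in GC+GW9662, and their part in the receptor results was not tested either.

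The other genes of the pathway did not move as one. Of 88 further genes in 8 lists, 80 were tested. In GC against Control 29 were lower, 18 higher and 33 did not pass (median -0.42, against -0.38 over all genes). These are 36.2% lower and 22.5% higher, against 39.1% and 16.2% of all genes, and the number called higher was 28, 29 and 28 under median-ratio scaling, quantile scaling and without the length trend. Between the treated groups 40 were lower and 25 higher (median -0.53, against -0.11 over all genes), or 50% and 31.2% against 33.5% and 28.3% of all genes. Against Control, with the inhibitor, 47 were lower and 5 higher, or 58.75% and 6.25% against 48.6% and 14.1% of all genes. By median-ratio scaling these became 31 and 18, where all genes gave 4687 lower and 4411 higher. Of the other 3 mouse receptor genes, Tlr5, the flagellin receptor, went from 1.41 ± 0.0365 TPM in Control to 0.0431 ± 0.0573 in GC (-1.21 ± 0.15, limma adjusted p = 3.0e-04), Tlr11 was listed at 0 in all libraries and Tlr12 stayed at or below 0.126 TPM.

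Partners of the surface and endosomal receptors were split. Of 6 tested accessory receptors 3 were lower (50%) and 1 (Ly96) higher in GC against Control. For this and the lists below, 39.1% of all genes were lower and 16.2% higher. Cd180, a receptor relative known from B cells and myeloid cells, went from 10.6 TPM to 0.306 (-3.15 ± 0.28) and its partner Ly86 from 6.38 to 0.749 (-2.08 ± 0.24). Cd36, a scavenger receptor that also binds fatty acids, went from 1273 to 272 TPM (-2.22 ± 0.16). In GC+GW9662 Ly86 stood at 7.40, Cd180 at 2.60 and Cd36 at 554 TPM, and each was higher than in GC (limma adjusted p up to 0.0019).

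Of 11 genes for chaperones, trafficking and cleavage of receptors, 5 were lower (45.5%) and 2 higher (18.2%) in GC against Control. Unc93b1, which carries the endosomal receptors, went from 343 ± 18.8 TPM to 52.6 ± 5.06 in GC (-2.69 ± 0.12, limma adjusted p = 1.5e-06) and 235 ± 17.8 in GC+GW9662 (2.14 ± 0.11 against GC). It fell less than Tlr7: Unc93b1 over Tlr7 was 2.36 and 2.38 in Control, 19.1 to 62.2 in GC and 6.85 to 8.88 in GC+GW9662. Lgmn, a lysosomal protease, went from 1612 TPM to 178 and 693, and Rab7b, a trafficking GTPase, from 93.8 to 14.2 and 25.0. Between the treated groups the list was split, with 5 higher (45.45%) and 6 lower (54.55%), against 28.3% and 33.5% of all genes.

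**Figure D4:**
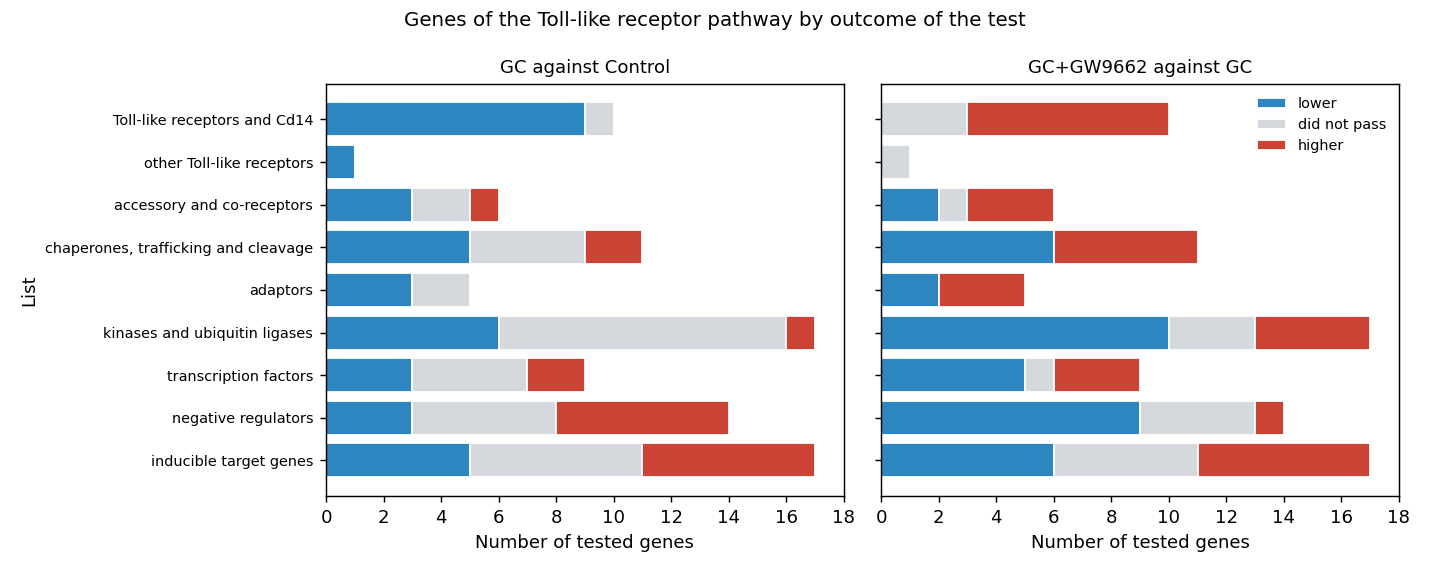
Number of tested genes in each list that were lower, did not pass or were higher in GC against Control (left) and GC+GW9662 against GC (right), by limma at an adjusted p of 0.05 on the deposited scale. Among negative regulators 6 of 14 are higher in GC and 9 of 14 are lower with GW9662. The receptors with Cd14 show 9 lower and then 7 higher of 10. Of all genes, 39.1% are lower and 16.2% higher in the left comparison, and 33.5% lower and 28.3% higher in the right. Median-ratio scaling moves all genes called higher in GC from 2428 to 4072.

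Among adaptors 3 of 5 tested genes were lower in GC and none higher. Myd88 itself changed little, from 67.3 ± 2.67 TPM in Control to 49.3 ± 2.74 in GC (-0.44 ± 0.11, limma adjusted p = 0.0096), a call lost without Control replicate 1 (adjusted p = 0.087), under quantile scaling (0.52), with rescaling (0.12), without the length trend (0.46) and under median-ratio scaling, where its sign turned (0.10). Ticam1 stood at 16.2 and 18.8 TPM in Control and GC (0.14, adjusted p = 0.74) and was lower in GC+GW9662 at 5.27 (-1.61 ± 0.28 against GC, adjusted p = 0.0015). Its value in GC against Control passed without GC replicate 1 (0.46, adjusted p = 0.039), under median-ratio scaling (0.64, 0.041), quantile scaling (0.81, 0.010) and library weights (0.44, 5.2e-04), and turned in sign without GC replicate 2 (-0.03) or 3 (-0.02). Pik3ap1, an adaptor towards PI3 kinase, went from 156 TPM to 15.5, and Ticam2, the TRIF-related adaptor of TLR4, from 3.98 to 0.155.

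Among 17 kinases and ubiquitin ligases 6 were lower (35.3%), 1 higher and 10 did not pass in GC against Control. GC replicate 1 was the lowest GC library for 13 of the 17. Tab2, for example, stood at 15.1 TPM in it and at 91.3 and 69.0 in the other GC libraries, and Ripk1 at 11.1, 60.4 and 42.6. Without that library 3 of the 17 were higher and 6 lower, and the calls over all genes moved from 2428 higher and 5863 lower to 3043 and 6216. GC replicate 1 was also the lowest GC library for 12 of 14 negative regulators, 8 of 11 chaperone and trafficking genes and 6 of 9 transcription factors. How often it was lowest over all genes was not counted. Among inducible target genes it was lowest for 7 of 17, as was GC replicate 3. Of the members, Tlr4, Tlr7, Tlr8 and Tlr13 were lowest in GC replicate 1, the other receptors in GC replicate 3 and Cd14 in GC replicate 2. Irak4, the kinase that MyD88 recruits first, went from 21.6 to 2.98 TPM (-2.54 ± 0.30, limma adjusted p = 2.0e-04). Ikbke changed by -2.20 and Ikbkb by -1.94. Between the treated groups 10 of the 17 kinases and ligases were lower and 4 higher, the latter including these 3 genes (0.80 to 0.86). As shares, 58.8% were lower and 23.5% higher, against 33.5% and 28.3% of all genes. The call of Irak4 there was lost without Control replicate 1 or 2, GC replicate 3 or GC+GW9662 replicate 1 or 3 (adjusted p up to 0.10), and that of Ikbkb without GC+GW9662 replicate 2 or 3 (up to 0.061). Of 9 transcription factor genes Irf5, which acts below TLR7 and TLR9, went from 105 TPM to 7.0 in GC and 74.5 in GC+GW9662 (-3.73 ± 0.18 and 3.24 ± 0.16). Irf8, a myeloid regulator, went from 40.4 to 8.25 and 22.8 TPM, whereas Relb, an NF-kB subunit, went from 11.6 to 36.6 and 11.3 TPM.

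Among 14 tested negative regulators 6 rose and 3 fell in GC (42.9% and 21.4%). Socs1, a cytokine signalling inhibitor, went from 1.76 TPM in Control to 73.9 in GC and 2.16 in GC+GW9662 (4.76 ± 0.21 and -4.58 ± 0.19, limma adjusted p up to 1.4e-06). Tollip, which dampens IRAK1, went from 108 to 356 and 86.3 TPM. Dok3 went the other way, from 24.1 to 0.666 and 17.3 TPM. Of 17 tested inducible target genes 6 were higher and 5 lower in GC. Tnf, the tumour necrosis factor gene, went from 4.81 TPM to 42.5 in GC and 4.51 in GC+GW9662 (2.88 ± 0.24 and -2.98 ± 0.21), and the chemokine gene Cxcl2 from 2.73 to 15.4 and 4.52 TPM. Lcn2, lipocalin 2, went from 15.4 to 2.99 and 11.5 TPM. Ifnb1 and Il12b were listed at 0 in all libraries.

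Genes most like the 4 members of highest mean level were found by Pearson's r of log2(TPM + 1) over the 8 libraries, among the 9947 genes whose mean reached 5 TPM in any group. This describes patterns over 3 separate groups, so r near 1 was common. For Tlr8, 878 genes had r of at least 0.95, led by Anxa6, Mpeg1, Rassf2, Cd93 and Ddr1 (r 0.998 to 1.0). For Tlr7 there were 897, led by Kctd10, Vim, Synpo, Lgals3bp and Lgmn, and for Tlr13 there were 960, led by Rrm1, Man2b1, Cdh11, Tgfbr2 and Ptk7. For Cd14 only Xrcc4 reached it (r 0.96), followed by Klhdc1, Gsap, S100pbp and Panx1 (r 0.894 to 0.919).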

How the data were processed

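Values are TPM as deposited, a column per library, which the authors made by dividing reads by gene length and scaling each library to the same total; fastp, HISAT2 2.1.0 and featureCounts are named per the submitters' processing notes, and the genome build and annotation are not given in the sources used here. Libraries were made with Smart-Seq2, which amplifies full-length cDNA and keeps no strand, per the labels' protocols. Its 54232 rows were reduced to 54134 genes. For 97.6% of them the start and end were those of GENCODE M21 (GRCm38). Per library, TPM times length is a whole multiple of what 1 read is worth (tolerance 0.02 reads) for 43.6% of the genes above 0 at the M21 exon length, and for each of the 10 members at that or a shorter length. The smallest such length gave the estimated reads. Genes whole at the M21 length held 2102397 to 3137411 reads per library, a lower bound on depth. Amplified reads are not independent molecules.

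The 14985 genes reaching 1 TPM in 2 or more libraries were fitted as log2(TPM + 1), pseudocount 1, with limma 3.58.1 in R 4.3.3 (version 1.17.8 of data.table), 1 mean per group over all 8 libraries, a prior following mean expression, with two-sided p-values adjusted by Benjamini-Hochberg separately for the 3 comparisons and called at 0.05; the script was tested on simulated data. Replicates carry the number in the title. The labels do not say that equal numbers mark a shared culture, so no block was used in the main fit. Deviations of same-numbered libraries from their group means had r of -0.16 to 0.08. The 2 Control libraries deviate as mirror images, so these values cannot settle whether libraries were paired. The members and all lists were chosen with earlier results of these data known. All 10 members are named in every comparison. From each pathway list up to 3 called genes with the smallest adjusted p in GC against Control are named, together with Ly96, Unc93b1, Myd88 and Ticam1; other names were chosen after their values were seen. Marker lists covered macrophages, neutrophils, plasmacytoid and conventional dendritic, mast, adipocyte, stromal, endothelial, T and NK cells; 1 further marker list is not reported here. Upstream sequences of 7 members were in the RefSeq table. Python 3.11.15 with pandas 2.3.3, numpy 2.4.6 and matplotlib 3.10.9 prepared tables and figures. In all, 22 alternatives were run: other pseudocounts, filters, scalings (median-ratio, quantile, rescaling, a gene length trend taken out), priors, weights per library, blocks, the compared groups alone and each library left out.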

Additional observations from a re-analysis of the deposited data

How the results depend on the processing

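Under the 22 alternatives the falls of Tlr1, Tlr2, Tlr3, Tlr4, Tlr6, Tlr7, Tlr8 and Tlr13 in GC against Control kept their sign and their call wherever the gene was tested (a 5 TPM filter drops Tlr1, Tlr3, Tlr6 and Tlr9). Of 20 results that changed sign, most had not passed. Median-ratio scaling turned Cd14 (0.41) and Myd88 (0.10) in GC against Control, Tlr4 (0.011) and Cd14 (0.08) in GC+GW9662 against GC, and Tlr1 (0.22), Tlr2 (0.35), Tlr6 (0.013) and Cd14 (0.49, adjusted p = 0.045) in GC+GW9662 against Control. Quantile normalization turned Tlr4 (0.13), Tlr1 (0.19), Tlr2 (0.41) and Tlr6 (0.28). Rescaling without mitochondrial and top 20 genes turned Cd14 (0.068). Taking out the length trend turned Cd14 (0.029), Tlr4 (0.26), Tlr1 (0.30), Tlr2 (0.048) and Tlr6 (0.049). Leaving out 1 library gave Ticam1 -0.031 (without GC replicate 2) to 0.459 (without GC replicate 1), and -0.018 without GC replicate 3. The cause was not tested.

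The 5 TPM filter left 5 members called lower in GC against Control and 4 called higher in GC+GW9662 against GC, since fewer were tested. Of the 11005 genes it kept, 4673 and 3477 were called in these directions. Quantile normalization (Cd14, -0.38), library weights (Tlr4, -0.22) and removal of the length trend (Cd14, -0.33) each called 1 member lower in GC+GW9662 against GC, and median-ratio scaling called 1 higher against Control (Cd14). The estimate of library weights stopped before its tolerance. Of all genes, 2428 were called higher in GC against Control, and 4072 (median-ratio), 4187 (quantile), 4311 (weights) and 4266 (length trend) under alternatives, with 28, 29, 29 and 28 other pathway genes in place of 18. In GC+GW9662 against Control 2114 higher and 7284 lower became 4411 and 4687 (median-ratio), 4216 and 4443 (quantile) and 3543 and 3412 (length trend), and the other pathway genes became 18 and 31, 18 and 30, and 13 and 24, with 11 higher under weights. Leaving out 1 library gave 916 (without Control replicate 1) to 2573 genes higher there and 2 to 8 other pathway genes (2 and 3 without Control replicate 1 and 2, 8 without GC replicate 1); 1292 genes were higher without Control replicate 2.

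A replicate block by title number left 9 members lower in GC against Control, 6 higher in GC+GW9662 against GC (Tlr13 lost, adjusted p = 0.081) and 5 lower against Control. A replicate block by bracketed number left 8 (Tlr9 lost, 0.052), 6 and 5. Of all 14985 genes tested, the title block called 5146, 3850 and 6588 in these directions, and the bracketed block 5258, 3877 and 6553. Either block ended the calls of Myd88, Irak4 and Ly96 in GC+GW9662 against GC. Tlr13 in GC+GW9662 against GC also lost its call when either Control library, GC replicate 3, or GC+GW9662 replicate 1 or 3 was left out (0.71 to 0.97), with no filter (adjusted p = 0.089), rescaling (0.073), a prior without trend (0.053) and only the 2 groups compared in the fit (0.066). With few reads behind Tlr1 and Tlr9 in GC, smaller differences may have been missed, and the size that could be detected was not tested.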
